A study of Mus musculus with 24 samples.

Results

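Levels of 3 neighbouring genes of the Rosa26 locus on mouse chromosome 6 were read in RNA from whole cerebellum: the noncoding gene Gt(ROSA)26Sor, which is the known insertion site of NDI1 in this line, and the protein-coding genes on either side of it, Thumpd3 and Setd5. They were chosen by name, 3 of the 43430 genes in the count table, and all 3 passed the filter on low counts. The 24 polyA-selected libraries came from 24 mice of about 7 weeks of age, in 4 genotype groups of 3 males and 3 females each. The groups were cKO+NDI1 (a conditional knockout that impairs brain complex I, with NDI1), NDI1 control (NDI1 without the knockout), cKO (the knockout alone) and Cre control (neither the knockout nor NDI1). The labels give every group by these names alone. They state neither the promoter that drives Cre, nor whether NDI1 control mice carried Cre, nor the number of NDI1 alleles, nor the strain.

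The Rosa26 locus was found in a gene trap screen, and it is used as a place to insert transgenes because its promoter is active in most mouse tissues. The usual design puts the transgene in the first intron of Gt(ROSA)26Sor behind a stop cassette that Cre removes, so that the locus drives the transgene. NDI1 is a yeast enzyme of the inner mitochondrial membrane that turns NADH into NAD+ and moves no protons, and it is used to bypass complex I. Thumpd3 is a THUMP domain protein whose human counterpart methylates tRNA together with TRMT112. Setd5 is a chromatin protein with a SET domain, and loss of 1 copy of the human gene is known to cause intellectual disability.

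In GRCm38 with the GENCODE M21 annotation, Gt(ROSA)26Sor (ENSMUSG00000086429) spans chr6:113067428-113077333 on the minus strand, 9906 bases with 4 annotated transcripts. Setd5 (ENSMUSG00000034269, chr6:113077365-113153435, plus strand) starts head to head with it, with 31 bases between the annotated starts. Thumpd3 (ENSMUSG00000030264, chr6:113046225-113068273, plus strand) runs towards it, and the ends of both gene bodies overlap by 846 bases. In this overlap 145 bases (chr6:113067674-113067818) are exonic in both genes. They make up 8.55% of the exon bases of Gt(ROSA)26Sor and 2.21% of those of Thumpd3, and they lie in 2 of the 4 Gt(ROSA)26Sor transcripts. The sources used here do not say whether reads were counted by strand. It is therefore not known for which of both genes, if any, reads in these bases were counted. The first intron of Gt(ROSA)26Sor-201 is 5632 bases long (chr6:113071436-113077067). Of the gene's exon bases, 15.7% lie before this intron and 84.3% after it. The first set of bases shown is the union of the first exons of Gt(ROSA)26Sor (chr6:113077068-113077333, minus strand, 266 bases), since it lies next to the Setd5 start and precedes the intron used for transgenes. Capitals mark the pentamer CCAAT and its reverse complement ATTGG, which occurred 3 times with no overlap. CCAAT on either strand was present in 34.5% of the 32851 RefSeq promoter windows (GRCm38.p6) trimmed to the same length, and as many matches or more in 2.8% of them. Whole windows run from 250 bases before a start to 50 after it, whereas the stretch shown is annotated as exon. The positions compared are thus unlike. The stretch held 28 CpG dinucleotides at 72.2% GC, against a median of 7 CpG and 52.7% GC per whole promoter window of 300 bases. The other sequence is the splice junction of Gt(ROSA)26Sor-201 across that intron, with the last 20 bases of exon 1 in capitals (chr6:113077068-113077087) and 40 bases of exon 2 in lower case (chr6:113071396-113071435). It is the join that a read must cross to link both sides of the intron. Both come from the GENCODE M21 transcripts and run 5′ to 3′ along the gene.
Gt(ROSA)26Sor first exons: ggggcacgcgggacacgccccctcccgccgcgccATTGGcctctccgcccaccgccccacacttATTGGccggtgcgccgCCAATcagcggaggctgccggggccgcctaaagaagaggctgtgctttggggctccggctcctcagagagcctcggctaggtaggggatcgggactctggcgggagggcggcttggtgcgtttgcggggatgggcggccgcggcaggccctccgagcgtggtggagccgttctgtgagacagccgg
Gt(ROSA)26Sor-201 exon 1 to exon 2 junction: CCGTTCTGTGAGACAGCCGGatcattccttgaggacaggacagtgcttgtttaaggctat
The deposited counts are sums per gene, so they do not show how many reads fell on either side of this junction.

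**Figure D1:**
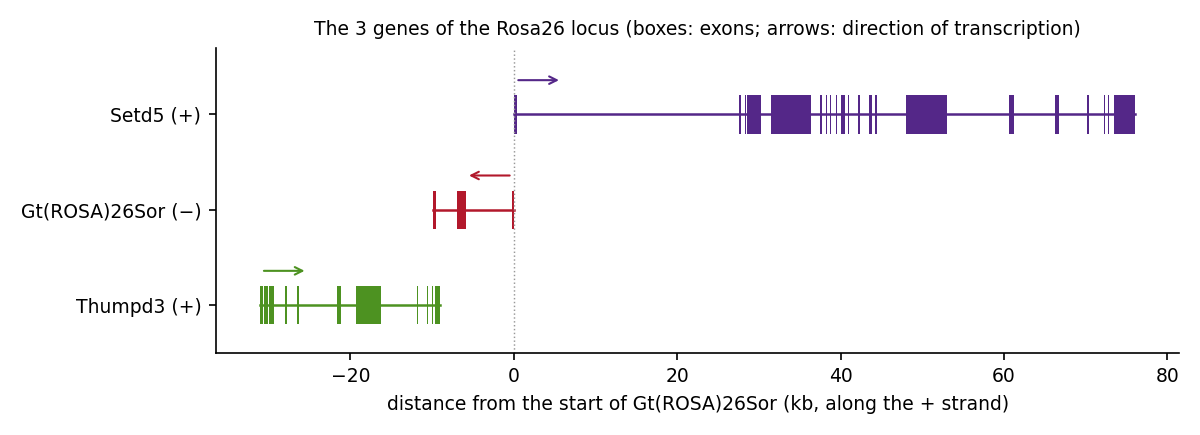
Map of the 3 genes, with the distance from the annotated start of Gt(ROSA)26Sor in kb on the horizontal axis and 1 gene per row; boxes are the union of annotated exons, lines are gene bodies, and arrows show the direction of transcription. Gt(ROSA)26Sor and Setd5 start 31 bases apart and point away from each other, and the last exons of Thumpd3 reach the far end of Gt(ROSA)26Sor.

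Library totals ranged from 7584374 to 19785264 counts, and 15300 genes had enough counts to be tested. Of the tissue markers, the summed level of 9 cerebellar genes (Purkinje, granule and Bergmann cells) was 10200 to 12000 CPM in cKO+NDI1, 11100 to 13500 CPM in NDI1 control, 10900 to 11600 CPM in cKO and 11500 to 12700 CPM in Cre control. CPM is the read count of a gene relative to the library's total, scaled here by TMM factors. The 3 choroid plexus markers Ttr, Kl and Folr1 varied between 1070 and 4120 CPM. Which gene was deleted is not in the labels. In this study it is known to be Ndufs4, an accessory subunit of complex I, which had 77.1, 99.99 and 119.6 CPM (lowest, median, highest) in cKO+NDI1, 106, 123 and 199 CPM in NDI1 control, 67.1, 93.0 and 133 CPM in cKO, and 104, 140 and 164 CPM in Cre control. Its log2 difference was -0.47 ± 0.16 (SE) in cKO against Cre control (edgeR quasi-likelihood adjusted p 0.0939) and -0.49 ± 0.16 in cKO+NDI1 against NDI1 control (adjusted p 0.781). In males the cKO mice (67.06 to 97.84 CPM) lay below the Cre control mice (139.5 to 164.3 CPM), whereas in females cKO (88.55 to 132.9 CPM) and Cre control (104.4 to 139.8 CPM) overlapped; this difference between the sexes was -0.70 ± 0.26 (unadjusted edgeR p 0.0151, adjusted p 0.212). Exons outside a deleted part are included in these counts, so they are a weak check of the labels.

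Gt(ROSA)26Sor RNA was low in every library with NDI1 and high in every library without it. It had 5.95, 6.50 and 9.50 CPM (lowest, median, highest of 6) in cKO+NDI1 and 5.66, 6.91 and 8.18 CPM in NDI1 control. It had 23.8, 34.6 and 47.7 CPM in cKO and 26.9, 36.2 and 46.9 CPM in Cre control. The 12 libraries with NDI1 did not overlap the 12 without it, and the lowest library without NDI1 was 2.51 times the highest with it. Means were 7.04 ± 1.35 CPM in cKO+NDI1 and 7.01 ± 0.879 CPM in NDI1 control, against 34.8 ± 8.14 CPM in cKO and 35.7 ± 7.53 CPM in Cre control (SD, n = 6 each). Behind these levels stood 45 to 132 reads per library in cKO+NDI1, 86 to 119 in NDI1 control, 265 to 607 in cKO and 450 to 769 in Cre control. Each of the 12 mice with NDI1 thus still had reads of this gene.

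**Figure D2:**
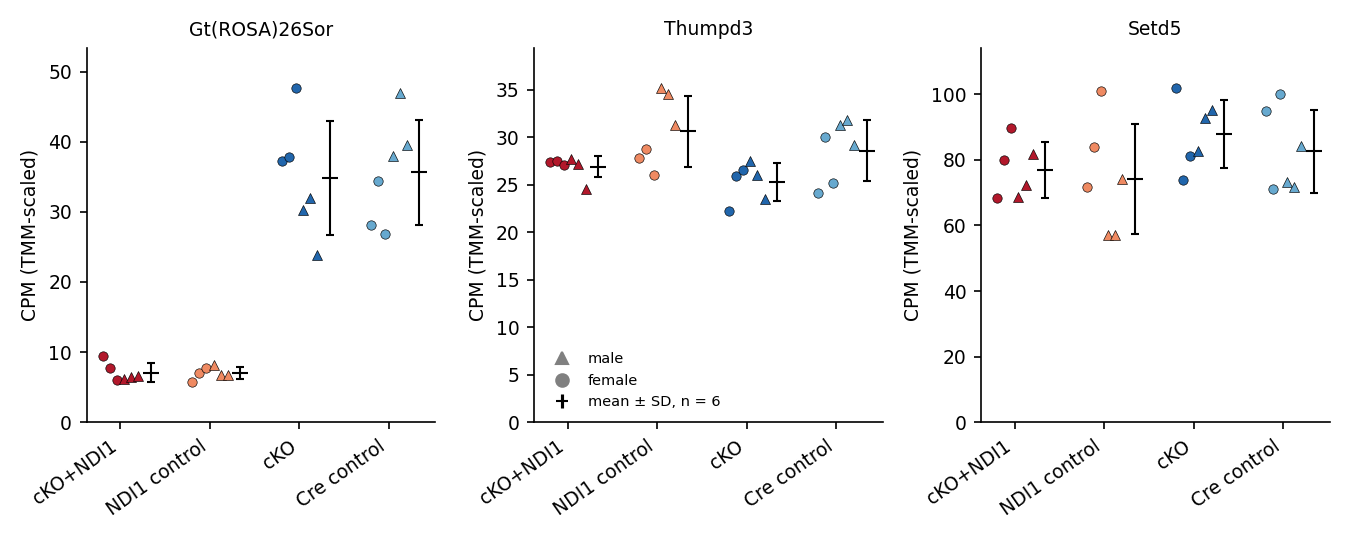
Level of Gt(ROSA)26Sor, Thumpd3 and Setd5 in CPM (vertical axes, from 0) in each of the 24 libraries, by genotype group; triangles are males, circles females, and black bars show the mean ± SD of 6. Gt(ROSA)26Sor lies between 5.66 and 9.50 CPM in both groups with NDI1 and between 23.8 and 47.7 CPM in both groups without it, while the groups overlap for Thumpd3 and Setd5.

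Averaged over both backgrounds, the log2 fold change of Gt(ROSA)26Sor with NDI1 was -2.32 ± 0.11 (SE, 95% interval -2.56 to -2.09), 0.2 of the level without NDI1 (95% interval 16.98 to 23.6% of it), with an edgeR adjusted p of 2.57e-12. In cKO+NDI1 against cKO it was -2.296 ± 0.163, or 20.4% of the cKO level (16.1 to 25.7%; adjusted p 7.68e-09). In NDI1 control against Cre control it was -2.35 ± 0.16, or 19.6% of the Cre control level (15.6 to 24.7%; adjusted p 3.72e-09). A difference in this change between the knockout and control backgrounds was not detected: the interaction of knockout and NDI1 was 0.05 ± 0.23 (95% interval -0.41 to 0.52, adjusted p 1). Nor was one detected between the sexes, with an NDI1 effect in males minus that in females of -0.09 ± 0.16 (95% interval -0.43 to 0.24, adjusted p 0.85). In bulk tissue, fewer cells that express a gene and less RNA per cell cannot be told apart.

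Of all 15300 genes, Gt(ROSA)26Sor had the smallest p and the largest absolute log2 fold change in each of these NDI1 comparisons. Over all genes, 0.582% passed for the averaged NDI1 effect (89 genes, 52 higher and 37 lower), 0.209% in cKO+NDI1 against cKO (32 genes) and 0.00654% in NDI1 control against Cre control. In this last comparison, Gt(ROSA)26Sor was the 1 gene that passed with edgeR, while 1408 genes had an unadjusted p under 0.05 and DESeq2 called 79. Leaving out single libraries moved these counts. For the averaged effect 23 genes passed without NDI1 control F1, 28 without cKO+NDI1 F2, 33 without cKO M2, 34 without Cre control M3, 41 without Cre control M2 and 145 without NDI1 control M3, and 53 to 59 without cKO+NDI1 M1 or M2, NDI1 control M1 or M2, cKO M1, or Cre control F1 or F3. In cKO+NDI1 against cKO 10 to 16 passed without cKO+NDI1 M1, M2, F2 or F3 or cKO M1, M2 or F2, and 21 without cKO F1. In NDI1 control against Cre control the count was 31 without Cre control M1, 37 without NDI1 control M3, 5 without cKO+NDI1 F1, and 2 without NDI1 control F3, cKO+NDI1 M2 or cKO+NDI1 F3. Gt(ROSA)26Sor itself passed in every one of these fits, with log2 values between -2.44 and -2.18 when single libraries were left out. Complete separation of the 12 libraries with NDI1 from the 12 without was seen for 3 genes in all: Gt(ROSA)26Sor and Mobp were lower, and Scnn1g was higher. Mobp, a myelin protein of oligodendrocytes, had 1010, 1150 and 1360 CPM in cKO+NDI1, 1040, 1340 and 1390 CPM in NDI1 control, 1560, 1680 and 2450 CPM in cKO, and 1410, 1490 and 1670 CPM in Cre control. Scnn1g, a subunit of the epithelial sodium channel, averaged 4.44 ± 1.14 CPM in cKO+NDI1 and 4.44 ± 0.526 CPM in NDI1 control, against 2.32 ± 0.496 CPM in cKO and 2.30 ± 0.692 CPM in Cre control (SD, n = 6 each).

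No change of Gt(ROSA)26Sor was detected for the knockout or for sex alone, but without NDI1 the order of cKO and Cre control was opposite in males and females. In cKO against Cre control the log2 fold change was -0.04 ± 0.15 (95% interval -0.35 to 0.26, edgeR adjusted p 0.931), beside 4.87% of all genes that passed. With NDI1 present, cKO+NDI1 against NDI1 control gave 0.01 ± 0.17 (95% interval -0.34 to 0.36, adjusted p 1), and male against female gave -0.05 ± 0.11 (adjusted p 0.795, where 0.085% of all genes passed). Within the males, cKO mice had 23.8, 30.2 and 32.0 CPM, against 38.0, 39.6 and 46.9 CPM in Cre control mice. Within the females, cKO mice had 37.3, 37.8 and 47.7 CPM, against 26.9, 28.1 and 34.4 CPM in Cre control mice. The groups did not overlap in either sex, and they differed in opposite directions. How many other genes show such a pattern was not counted. On the log2 scale, the cKO effect of males less that of females was -0.997 ± 0.208 (95% interval -1.43 to -0.57, n = 3 per group and sex, unadjusted edgeR p 9.4e-05, place 4 of 15300 genes). Its adjusted p was 0.21 and 0% of genes passed with edgeR, although 3147 had an unadjusted p under 0.05. DESeq2 gave an adjusted p of 0.013 with 12 genes called, and the fit with no filter on low counts gave 0.0453 with 5 called. This comparison was added after the levels by sex were seen. In the same mice the oligodendrocyte markers Mbp and Mog summed to 5899 ± 891 CPM in cKO males and 6121 ± 137.5 CPM in Cre control males, and to 7044 ± 1468 CPM in cKO females and 5809 ± 345.2 CPM in Cre control females (SD, n = 3 each). The means of this sum had the same order as those of Gt(ROSA)26Sor in both sexes, with overlap in each, and its part in the result was not tested. With NDI1, the males of cKO+NDI1 (6.14 to 6.61 CPM) lay just below those of NDI1 control (6.71 to 8.18 CPM), while the females of cKO+NDI1 (5.95 to 9.50 CPM) and NDI1 control (5.66 to 7.73 CPM) overlapped. A fit of the males alone gave -0.17 for cKO+NDI1 against NDI1 control (adjusted p 0.545).

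**Figure D3:**
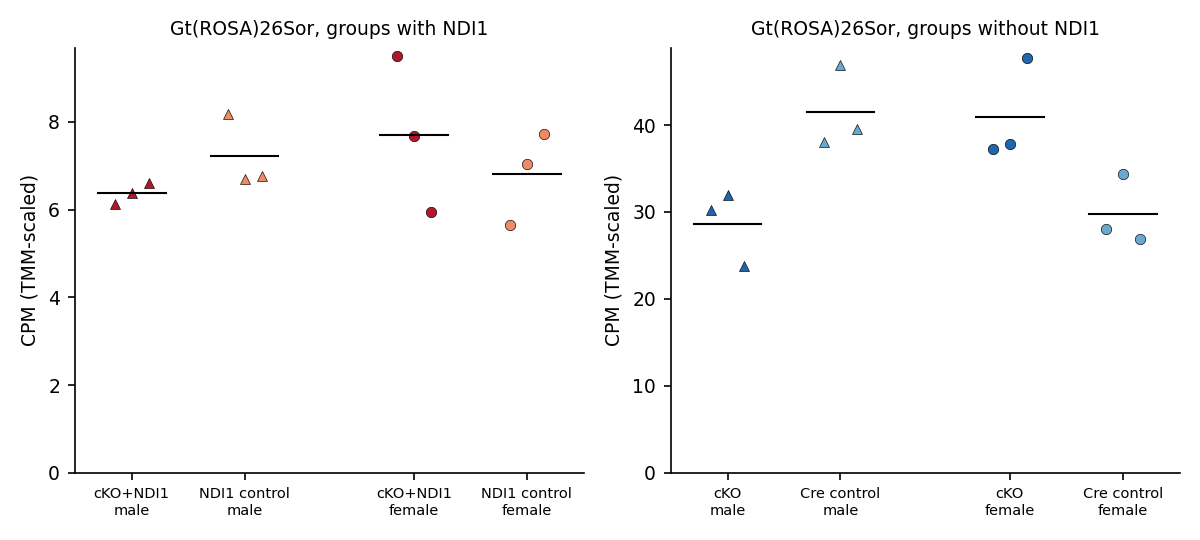
Level of Gt(ROSA)26Sor in CPM (vertical axes, from 0, with different scales) by sex, in the groups with NDI1 (left) and without NDI1 (right); each symbol is 1 mouse and the black lines are means of 3. Without NDI1, the cKO males (23.8 to 32.0 CPM) lie below the Cre control males (38.0 to 46.9 CPM) and the cKO females (37.3 to 47.7 CPM) above the Cre control females (26.9 to 34.4 CPM).

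Thumpd3, whose last exons reach into Gt(ROSA)26Sor, did not pass in any comparison. It had 24.6, 27.3 and 27.7 CPM in cKO+NDI1, 26.05, 30.1 and 35.2 CPM in NDI1 control, 22.25, 25.96 and 27.45 CPM in cKO, and 24.1, 29.6 and 31.8 CPM in Cre control. All 4 groups overlapped. The averaged NDI1 effect was 0.09 ± 0.05 on the log2 scale (95% interval -0.01 to 0.20, adjusted p 0.438), an interval of 99.0 to 115% of the level without NDI1. A fall of the size seen in Gt(ROSA)26Sor lies outside this interval. In cKO+NDI1 against cKO it was 0.09 ± 0.08 (adjusted p 0.802), and in NDI1 control against Cre control 0.10 ± 0.07 (adjusted p 0.678). The knockout differences were of the same size in both backgrounds, at -0.18 ± 0.07 in cKO+NDI1 against NDI1 control (unadjusted p 0.0237, adjusted p 0.983) and -0.18 ± 0.08 in cKO against Cre control (unadjusted p 0.0289, adjusted p 0.199), and neither passed. Their means were 26.9 ± 1.15 CPM in cKO+NDI1 and 30.6 ± 3.73 CPM in NDI1 control, and 25.3 ± 1.97 CPM in cKO and 28.6 ± 3.22 CPM in Cre control (SD, n = 6 each). Male against female gave 0.13 ± 0.05 (unadjusted p 0.0229, adjusted p 0.291). In NDI1 control the 3 males (31.3 to 35.2 CPM) lay above the 3 females (26.05 to 28.8 CPM), whereas in cKO+NDI1 the males (24.6 to 27.7 CPM) overlapped the females (27.1 to 27.5 CPM).

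Setd5, which shares its start region with Gt(ROSA)26Sor, did not pass in any comparison either. It had 68.4, 76.2 and 89.9 CPM in cKO+NDI1, 57.0, 72.9 and 101 CPM in NDI1 control, 73.9, 87.7 and 102 CPM in cKO, and 71.1, 78.9 and 100.1 CPM in Cre control. The groups overlapped widely, and 4 of the 12 libraries with NDI1 lay below the lowest without it. The averaged NDI1 effect was -0.18 ± 0.08 on the log2 scale (95% interval -0.35 to -0.01, unadjusted p 0.0359, adjusted p 0.333), or 88.2% of the level without NDI1 (78.5 to 99.1%). A share of 16.4% of all genes had a larger difference, and 13.5% of all genes had an unadjusted p under 0.05. In cKO+NDI1 against cKO the value was -0.20 ± 0.12 (adjusted p 0.684), and in NDI1 control against Cre control it was -0.16 ± 0.12 (adjusted p 0.657). The knockout differences were 0.06 ± 0.12 in cKO+NDI1 against NDI1 control (adjusted p 0.998) and 0.10 ± 0.12 in cKO against Cre control (adjusted p 0.736). Male against female gave -0.17 ± 0.08 (unadjusted p 0.05, adjusted p 0.291).

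Per kb of exon, Gt(ROSA)26Sor stood at the level of its neighbours with NDI1 and above them without it. Levels were divided by the length of the exon union, which is 1695 bases for Gt(ROSA)26Sor, 6554 for Thumpd3 and 18347 for Setd5. With NDI1, Gt(ROSA)26Sor had 4.155 ± 0.794 CPM per kb in cKO+NDI1 and 4.138 ± 0.518 CPM per kb in NDI1 control (SD, n = 6 each). That is within the spread of Setd5 (4.19 ± 0.463 in cKO+NDI1 and 4.04 ± 0.911 in NDI1 control), and it differs from Thumpd3 (4.11 ± 0.175 in cKO+NDI1 and 4.675 ± 0.57 in NDI1 control) by less than 1 SD of Thumpd3. Without NDI1, Gt(ROSA)26Sor had 20.53 ± 4.8 CPM per kb in cKO and 21.03 ± 4.44 CPM per kb in Cre control. Those levels were above Setd5 (4.79 ± 0.562 in cKO and 4.503 ± 0.688 in Cre control) and Thumpd3 (3.86 ± 0.3 in cKO and 4.367 ± 0.491 in Cre control). The union holds exons of all annotated transcripts, so these levels depend on which transcripts the cerebellum uses.

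Thumpd3 and Setd5 varied against each other between libraries, although they are neighbours of the same locus. Among the 12 libraries with NDI1, Pearson's r of their log2 CPM was -0.757 (permutation p 0.00522, adjusted 0.0157 over 6 relations) and Spearman's coefficient was -0.643 (permutation p 0.0283, adjusted 0.0813). Without the 2 libraries farthest from the Thumpd3 median r was -0.359, so the relation with NDI1 rests on those libraries. Among the 12 without NDI1, r was -0.839 (permutation p 0.00106, adjusted 0.00636) and Spearman's coefficient was -0.86 (permutation p 0.00074, adjusted 0.00444), and r was -0.766 without the 2 farthest libraries. Both lie along a variation that many genes share: over 24 libraries the first principal component of log2 CPM held 32.3% of the variance, and its absolute r was 0.92 with Setd5, 0.745 with Thumpd3 and 0.122 with Gt(ROSA)26Sor. Of the 15299 other genes, 1584 had r of at least 0.8 with Setd5 and 1495 had r of at most -0.8. The counts were 325 and 130 for Thumpd3, and 3 and 2 for Gt(ROSA)26Sor. Gt(ROSA)26Sor itself had r of 0.156 with Thumpd3 (permutation p 0.609, adjusted 0.706) and -0.122 with Setd5 (0.706, adjusted 0.706) in the 12 libraries with NDI1. In the 12 without NDI1 its r was 0.529 with Thumpd3 (permutation p 0.0807, adjusted 0.121) and -0.599 with Setd5 (0.0449, adjusted 0.0898), and Spearman's coefficient was 0.601 and -0.58 (both adjusted 0.0813). All correlations within a set of 12 pooled its genotype groups and both sexes, with no terms for either. Differences between groups and between sexes thus enter these coefficients and p-values along with those between mice.

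**Figure D4:**
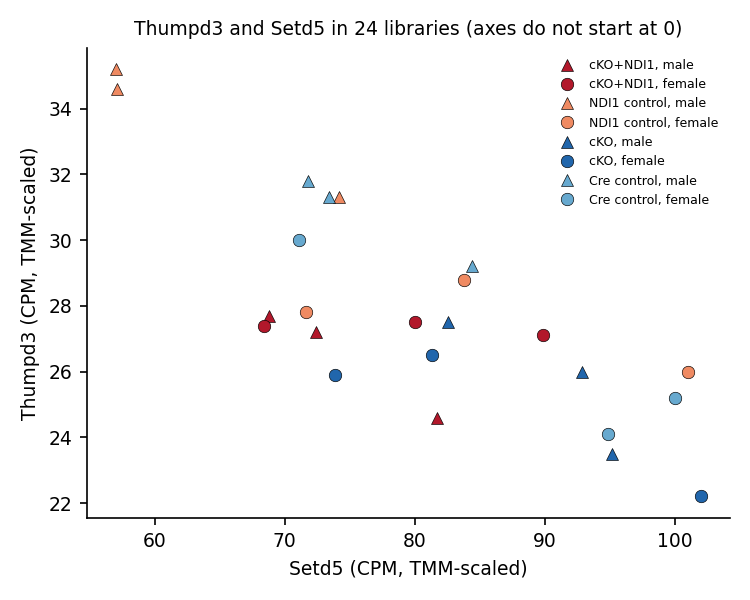
Thumpd3 (vertical axis) against Setd5 (horizontal axis), both in CPM, in each of the 24 libraries; colours are genotype groups, triangles males and circles females, and neither axis starts at 0. Libraries with more Setd5 tended to have less Thumpd3, and 2 NDI1 control males stand apart at 57.0 and 57.1 CPM of Setd5.

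No other gene within 1 Mb of Gt(ROSA)26Sor passed for NDI1. The table lists 52 other genes whose bodies lie within that distance, of which 8 had no read in any library and 32 were tested, 29 of them protein-coding. With edgeR, 0 of the 32 passed for the averaged NDI1 effect, where 0.582% of all genes did, and 0 in either single NDI1 comparison; an unadjusted p under 0.05 was found in 4 of them for the averaged effect, in 2 in cKO+NDI1 against cKO and in 1 in NDI1 control against Cre control (12.5%, 6.25% and 3.12%, beside 13.5%, 8.56% and 9.2% of all genes). DESeq2 and limma-voom also called 0 of the 32 in these 3 comparisons. For the averaged effect their log2 values ran from -0.29 (Gm15083, an antisense RNA) to 0.23 (Oxtr, the oxytocin receptor), with a median of -0.0033 beside -0.0018 over all genes tested. The nearest tested genes on the Thumpd3 side after Thumpd3 itself were Srgap3, a GTPase-activating protein of neurons (-0.20 ± 0.13), Rad18, a ubiquitin ligase of DNA damage tolerance (0.01 ± 0.08), the pseudogene Gm15519 (-0.20 ± 0.21) and Oxtr (0.23 ± 0.20). Beyond Setd5 they were Lhfpl4, a partner of GABA-A receptors at inhibitory synapses (-0.09 ± 0.10), Mtmr14, a phosphoinositide phosphatase (0.08 ± 0.06), Cpne9, a copine (0.05 ± 0.04), and Brpf1, a scaffold of histone acetyltransferases (-0.06 ± 0.06). On all of chromosome 6 but Gt(ROSA)26Sor, 3 of 765 tested genes passed for the averaged effect (0.392%), beside 0.585% on other chromosomes. The nearest of the 3 was Ret, a receptor tyrosine kinase 5.07 Mb away (0.41). The others were Mthfd2, a mitochondrial folate enzyme 29.7 Mb away (-0.50), and Nrf1, a transcription factor 82.9 Mb away (-0.18).

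**Figure D5:**
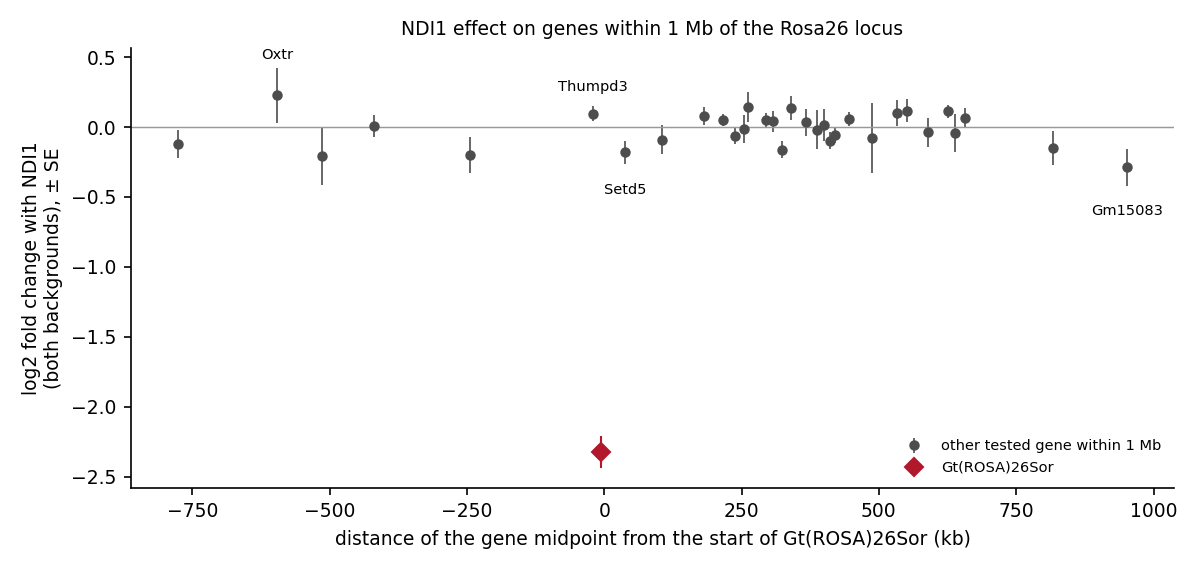
Averaged NDI1 effect as log2 fold change ± SE (vertical axis) of the tested genes within 1 Mb, against the distance of each gene's midpoint from the start of Gt(ROSA)26Sor in kb (horizontal axis). Gt(ROSA)26Sor lies at -2.32, and the other 32 genes lie between -0.29 and 0.23.

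For the knockout, 3 of these 32 genes passed in cKO against Cre control, where 4.87% of all genes did. Of the 3, 2 were higher and 1 was lower, beside 3.06% and 1.81% of all genes. They are named after their values were seen. Ttll3, a tubulin glycine ligase, rose: it had 25.0, 27.5 and 31.7 CPM in cKO and 17.4, 23.3 and 25.8 CPM in Cre control (log2 0.30 ± 0.08, adjusted p 0.0378). Gm15083 rose, with 5.76, 7.07 and 8.67 CPM in cKO and 3.54, 4.08 and 5.49 CPM in Cre control (0.78 ± 0.19, adjusted p 0.0152), and these groups did not overlap. Oxtr fell, with 0.313, 0.463 and 0.786 CPM in cKO and 0.610, 1.10 and 1.43 CPM in Cre control (-1.09 ± 0.29, adjusted p 0.0287). Members of the locus were not among them.

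The genes whose levels followed Gt(ROSA)26Sor most closely over the 24 libraries were Bcas1 (r = 0.83), Bzw1 (0.811), Mbp (0.811), Nudt4 (0.79) and Mobp (0.789), given as a description. Bcas1, Mbp and Mobp are known as oligodendrocyte genes. All 5 were less close within the libraries with NDI1 and within those without: r in the 12 with NDI1 and in the 12 without was 0.0823 and 0.636 for Bcas1, 0.532 and 0.648 for Bzw1, 0.303 and 0.405 for Mbp, -0.028 and 0.437 for Nudt4, and 0.173 and 0.358 for Mobp. For the averaged NDI1 effect, Mbp fell by 0.39 on the log2 scale (adjusted p 0.00678), Mobp by 0.43 (0.00606), Bcas1 by 0.33 (0.00606) and Nudt4 by 0.19 (0.0243), all with edgeR, while Bzw1 was at -0.14 (0.0672). The sum of Mbp and Mog, both oligodendrocyte markers, was 4317 to 5293 CPM in cKO+NDI1 and 4383 to 5561 CPM in NDI1 control, against 5310 to 8661 CPM in cKO and 5410 to 6216 CPM in Cre control. It was thus lower with NDI1 with a small overlap, and the part of these genes in the level of Gt(ROSA)26Sor was not tested. Closest to Thumpd3 were Cct5 (0.921), Tmx2 (0.919), Fuca2 (0.91), Arl6 (0.903) and Cct6a (0.899). Cct5 and Cct6a are subunits of the TRiC chaperonin. Closest to Setd5 were Cdk12 (0.96), Zfp652 (0.956), Rc3h1 (0.955), Purb (0.955) and its neighbour Srgap3 (0.955), at r between 0.921 and 0.981 within each of the sets of 12.

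Relatives of the proteins encoded next to the locus were read from lists of named genes. Of 16 THUMP domain and tRNA methyltransferase genes, all tested, 0 passed with edgeR for the averaged NDI1 effect (0.582% of all genes), at a median log2 of 0.05 beside -0.0018 over all genes. DESeq2 and limma-voom called 0 as well, and 1 member had an unadjusted p under 0.05 by each tool, beside 13.5% of all genes with edgeR. In cKO against Cre control Trmt1, which dimethylates guanosine in tRNA, rose by a log2 of 0.36 ± 0.09 (adjusted p 0.0156), the 1 member called of 16, beside 4.87% of all genes, and the list's median was -0.05. Of 14 relatives and partners of Setd5, among them Kmt2e, Hdac3 and the subunits of the PAF1 complex, 0 passed for NDI1 or the knockout; for the averaged NDI1 effect 3 of the 14 had positive values, against 7558 of all 15300 genes, and the median was -0.13. By each tool, 3 of the 14 had an unadjusted p under 0.05 for that effect (13.5% of all genes with edgeR), and DESeq2 and limma-voom called 0. Of 12 widely expressed genes such as Actb and Hprt, 0 passed for NDI1 and the median was 0.01. Among these 12, 2 had an unadjusted p under 0.05 for that effect, beside the same 13.5%, and DESeq2 and limma-voom called 0. Among genes with a mean log2 CPM of 1 or more, the lowest called values of the averaged NDI1 effect after Gt(ROSA)26Sor were those of Gabra2 (-0.99 ± 0.17, adjusted p 0.0102) and Nrg3 (-0.85 ± 0.20, 0.0415), then Mthfd2 (-0.50) and Frmd6 (-0.48). The highest called values were those of Scnn1g (0.92 ± 0.14, adjusted p 0.00442), Arg1 (0.87 ± 0.19, 0.0302), Egfl8 (0.67 ± 0.15, 0.0311), Kcnab3 (0.57 ± 0.11, 0.0177) and Fam131c (0.49 ± 0.10, 0.0243). Of these 10 genes, Gt(ROSA)26Sor was the 1 that passed with edgeR in both single NDI1 comparisons. No other gene could do so, since it was the 1 gene of all 15300 that passed in NDI1 control against Cre control. DESeq2 called 79 genes in that comparison.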

How the data were processed

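PolyA-selected RNA of 24 cerebella was sequenced. The submitters' processing notes name the tools STAR, HTSeq, Trimmomatic and bcl2fastq and the build mm10; versions, annotation release and strand setting are not given in the sources used here. The authors deposited raw read counts per gene and library, whole numbers with no normalization, with gene coordinates and a gene length in bases. Of 43430 Ensembl genes, 42462 were found in GENCODE M21, 33497 with equal coordinates, the 3 described genes among them; 0 per-library columns were left unused. The length in the deposited table was not used, because it is longer than the union of exons for all 3 genes.

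Counts were scaled by TMM factors, low counts were removed with filterByExpr by group, and 15300 genes were tested with edgeR's quasi-likelihood F test (edgeR 4.0.16, limma 3.58.1, R 4.3.3) in 1 fit with terms for group and sex, with Benjamini-Hochberg adjustment over the tested genes and a threshold of 0.05. SE comes from the fold change and its F, and log2 CPM used a prior count of 2. There were 9 comparisons; cKO against Cre control in males minus females was added after seeing the data. Correlations used 100000 permutations of the libraries of a set, with no terms for group or sex. No library was a copy of another in its group (chi-square per degree of freedom at least 4.4 in 60 pairs). The fit was also run on simulated counts, drawn for each gene on its own and with no sex effect. These lack the variation that many genes share in the real libraries, and no result given here rests on them.

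Replicate labels run from M1 to F3, and 19 of 36 same-numbered pairs of libraries had correlated deviations (r over 0.1). The median r was 0.11 for pairs of the same number and -0.0397 for pairs of other numbers. The main fit did not use the numbers as pairs, and whether they mark a pairing was not tested. Alternatives were other size factors, no filter, DESeq2 1.42.0, limma-voom, a replicate block, the 2 groups alone, each sex alone, other windows and leaving out each library. Named were the 3 genes, the 5 nearest tested genes on each side, the 5 most correlated genes of each, the 5 highest and 5 lowest called NDI1 changes at log2 CPM 1 or more, and called members of the lists. The genes and lists were chosen with earlier results of these data known. Each library is 1 mouse, and p-values rest on the spread between mice. The forebrain marker list is not reported here, and the oligodendrocyte list is given by 2 of its genes, a sum added after the data were seen.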

Additional observations from a re-analysis of the deposited data

Results flagged for a closer look

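The knockout's effect on Gt(ROSA)26Sor without NDI1 went in opposite ways in the sexes, with no overlap in either: cKO was lower than Cre control in 3 of 3 males and higher in 3 of 3 females. The difference between the sexes was -0.9971 on the log2 scale, with an edgeR adjusted p of 0.21 (0.013 with DESeq2 and 0.0453 with no filter on low counts). It was noticed in these libraries and then tested on them. Leaving out single libraries gave -1.10 to -0.86. With edgeR, 0% of the 15300 genes tested passed in this comparison, while 3147 had an unadjusted p under 0.05. The number of other genes with opposite directions and no overlap in either sex was not counted.

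Thumpd3 in cKO+NDI1 had 1 library far from the other 5: male M3 at 24.6 CPM, with a gap to the nearest library of 0.797 of the group's whole range (critical value 0.625 for 6 libraries). Of 12 combinations of gene and group this was the 1 so marked, and chance marks about 1 in 20. Without this library the averaged NDI1 effect on Thumpd3 was 0.12 on the log2 scale (edgeR adjusted p 0.304).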

How the results depend on the processing

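The fall of Gt(ROSA)26Sor with NDI1 kept its direction and passed in all 3 NDI1 comparisons under every alternative run (log2 -2.53 to -2.13), males alone and females alone included. Thumpd3 and Setd5 passed in none. Gt(ROSA)26Sor in the knockout's difference between the sexes passed with no filter (-1.007, adjusted p 0.0453) and with DESeq2 (-0.9939, adjusted p 0.013). In cKO against Cre control it was 0.4511 in females alone (adjusted p 0.152) and -0.5429 in males alone (adjusted p 0.0726), opposite values on either side of the value near 0 over both. Other values near 0 changed sign. For the interaction of knockout and NDI1, Thumpd3 was 0.001008 with RLE factors, 0.008632 with library size alone, 0.005272 with no filter and 0.08307 in females alone, Setd5 was 0.01754 in males alone, and Gt(ROSA)26Sor was -0.2486 in females alone. In females alone, cKO against Cre control gave -0.06474 for Setd5, and cKO+NDI1 against NDI1 control gave -0.1093 for Setd5; in males alone cKO+NDI1 against NDI1 control gave -0.17 for Gt(ROSA)26Sor.

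Numbers of genes called varied more, and the cause was not tested. For the averaged NDI1 effect, cKO+NDI1 against cKO and cKO against Cre control, they were 58, 21 and 425 with no filter and 276, 107 and 1157 with DESeq2. With no filter 2 passed in cKO+NDI1 against NDI1 control and 5 in the knockout's difference between the sexes. DESeq2 called 13 in the interaction, 79 in NDI1 control against Cre control, 25 in cKO+NDI1 against NDI1 control, 12 in the knockout's difference between the sexes and 38 between male and female. In NDI1 control against Cre control 3 passed with limma-voom. With replicate number as a block, 2 passed in NDI1 control against Cre control and 20 in cKO+NDI1 against cKO. Whether the numbers mark a pairing of libraries was not tested. With the 2 groups alone, 13 passed in cKO+NDI1 against cKO and 263 in cKO against Cre control. In males alone 1, 2 and 38 passed for the averaged effect, cKO+NDI1 against cKO and cKO against Cre control, and 1 in cKO+NDI1 against NDI1 control. In females alone 1, 2 and 364 passed for the same 3, and 2 in NDI1 control against Cre control.

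Leaving out single libraries gave 23 (without NDI1 control F1) to 145 genes (without NDI1 control M3) for the averaged effect, 10 to 42 in cKO+NDI1 against cKO, 1 to 37 in NDI1 control against Cre control, 0 to 3 in cKO+NDI1 against NDI1 control, 0 to 4 in the interaction and 10 to 33 in male against female. Gt(ROSA)26Sor then ranged from -0.153 to 0.05778 in cKO against Cre control, -0.08804 to 0.06523 in cKO+NDI1 against NDI1 control, -0.05171 to 0.166 in the interaction and -0.1063 to 0.004431 in male against female. The interaction ranged from -0.09379 to 0.06125 for Setd5 and -0.03637 to 0.04108 for Thumpd3, and the NDI1 effect in males minus females from -0.05143 to 0.03426 for Thumpd3. Gt(ROSA)26Sor rests on 45 to 132 reads per library with NDI1, which limits the precision there.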
